A study of Mus musculus with 8 samples.

Results

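The Vehicle group is the cream control of a study of macrophages of the mouse inguinal fat pad. Its 4 libraries of 8 in the series, called Vehicle 1 to Vehicle 4, are described here without any contrast to the other group. Wild-type female mice (WT in the labels) had a control preparation, Boots Aqueous Cream/10% Vaseline Lanette Cream, put on shaved skin of the back near the tail on 3 consecutive days, and were culled 24 h after the last application. The pads were digested with Liberase for 1 h and cells were collected with Anti-F480 MicroBeads, magnetic beads that bind F4/80, a surface protein of macrophages encoded by Adgre1. Per the labels, preparations had to hold more than 90% F480+CD64+ cells by flow cytometry, and each library pools the cells of 6 fat pads, about 30000 cells. The age of the mice is not given in the labels, nor whether the libraries come from separate animals, so the spread between libraries may be partly technical. Every gene in the table was described in these 4 libraries: genes were ranked by mean CPM (the gene's counts scaled by the total count of the library, in the usual CPM unit), lists of cell-type genes were set side by side, and genes with a mean CPM of 5 or more were ordered by the ratio of their highest to their lowest library.

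The inguinal pad of a female mouse is a mammary fat pad: a tree of milk ducts runs through the fat. The ducts have an inner luminal layer, marked by keratins 8 and 18 and by the adhesion protein Epcam, and an outer contractile myoepithelial layer, marked by keratins 5 and 14. Luminal cells are divided into hormone-sensing cells, which carry the oestrogen and progesterone receptors, and progenitors of the milk-producing cells. Tissue macrophages live beside both the ducts and the fat cells. They depend on the receptor Csf1r, clear dead cells, make the complement protein C1q and present antigen on MHC class II.

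Total counts were 22321201, 21874780, 34471508 and 31209826 in Vehicle 1 to 4, so that 1 count was worth between 0.0290 and 0.0457 CPM. Of the 56748 rows of the table, 27379 held 0 in all 4 libraries, 14725 had a mean CPM of 1 or more and 11445 a mean of 5 or more. The libraries correlated across these 11445 genes with Pearson's r between 0.966 (Vehicle 1 and 3) and 0.988 (Vehicle 2 and 4) on log2(CPM + 1); genes are not independent replicates, and this is a description. Mitochondrially encoded genes took 1.22% to 2.13% of the counts, the most in Vehicle 3. Xist, the female-specific RNA of the inactive X chromosome, stood at 1487, 1786, 1773 and 1921 CPM, and Ddx3y, Eif2s3y, Kdm5d and Uty of the Y chromosome had 0 counts in each library, as the label of female mice requires.

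Ranked by CPM, the libraries were led by genes of translation and of luminal epithelium, with the genes of macrophages further down. Eef1a1, a translation elongation factor, was first with 10284, 10013, 9804 and 10323 CPM in Vehicle 1 to 4, the order used for every set of 4 values below. The highest gene of any cell-type list was Krt8, keratin 8 of simple epithelia, at rank 7 with 5032, 3676, 3221 and 4486 CPM. Epcam stood at rank 44 with 1450.5, 1412, 1529 and 1482 CPM, and its highest library was 1.08 times its lowest. Csf1r, the receptor macrophages need to survive, was at rank 569 with 172, 265, 356 and 302 CPM. C1qa, a chain of complement C1q, was at rank 470 with 198, 303, 448 and 309.9 CPM. Both macrophage genes were lowest in Vehicle 1 and highest in Vehicle 3. Adgre1, which encodes the F4/80 protein bound by the beads, was at rank 2822 with 51.0, 83.3, 99.4 and 96.3 CPM. Fcgr1, which encodes the CD64 of the flow cytometry gate, was at rank 8018 with 18.05, 20.02, 22.77 and 17.81 CPM. Col3a1, a collagen of fibroblasts, was at rank 1782 with 219, 96.6, 90.6 and 79.6 CPM, and Vehicle 1 lay well above the other 3. Per kb of exon length, the scale on which genes can be compared, the order of means was Krt8 (2096 CPM per kb), Epcam (669), C1qa (303), Csf1r (47.4), Adgre1 (25.5), Col3a1 (12.4) and Fcgr1 (7.60). Macrophage genes were thus present in each library, as the label of an F4/80-enriched fraction says, but the highest cell-type genes were luminal, so the libraries are called the bead-enriched fraction here and not macrophages. In such bulk RNA, fewer cells of a type and less RNA per cell cannot be told apart.

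**Figure D1:**
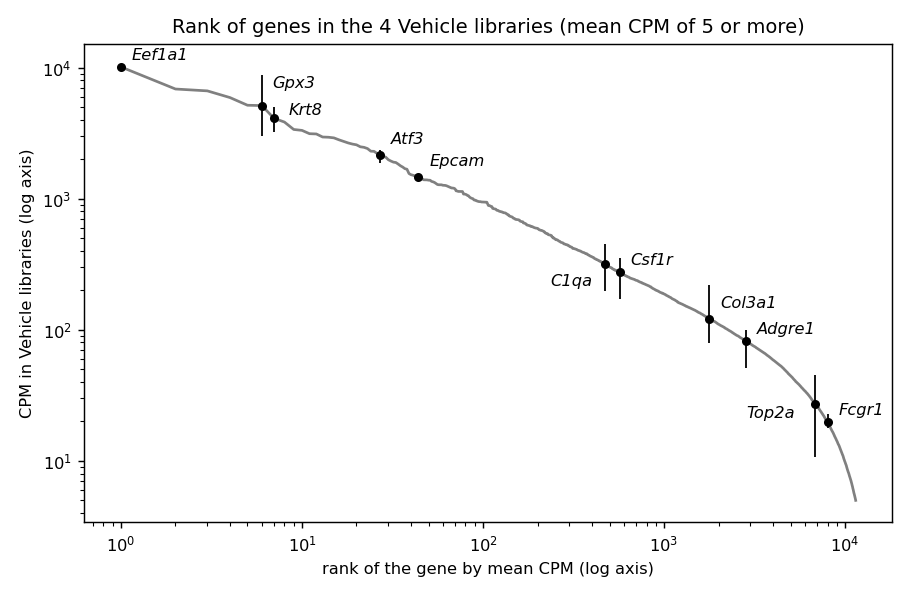
Genes with a mean CPM of 5 or more in the Vehicle libraries, ordered by mean CPM (horizontal axis, log scale) against CPM (vertical axis, log scale). The grey line is the mean over the 4 libraries, black points are named genes and bars run from their lowest to their highest library; Krt8 at rank 7 and Epcam at rank 44 lie above Csf1r at rank 569 and Adgre1 at rank 2822.

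The 20 genes of highest mean CPM took in 3 keratins of luminal cells and several secreted or membrane proteins. Besides Krt8, the luminal keratins Krt19 (mean 2952 ± 376 CPM, SD, n = 4) and Krt18 (2733 ± 372 CPM) were among them. Slc12a2, a sodium, potassium and chloride cotransporter, had 5157 ± 945 CPM. Igfbp5, a binding protein of insulin-like growth factors, had 2940.3 ± 549.6 CPM. The other named genes among these 20 were mt-Co1 and mt-Cytb of the mitochondrial genome, Eef2, Gpx3, Glul, Cd164, Actg1, Hsp90ab1, Tgm2, Ptn, Actb and Ly6e, and identifiers ENSMUSG00000119584 (rank 2) and ENSMUSG00000120992 (rank 18) have no symbol in the annotation used. Most of these genes differed by less than 2-fold between libraries, and 3 differed by more. Gpx3, the secreted glutathione peroxidase, had 8829.6, 5309, 3346 and 3020.4 CPM. Glul, glutamine synthetase, had 6364, 2952, 2914 and 3121 CPM. Tgm2, a protein-crosslinking transglutaminase, had 6487, 1972, 1376 and 2623 CPM, and its highest library was 4.72 times its lowest. All 3 were highest in Vehicle 1, and for Glul the other 3 libraries lay close together.

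Levels of different genes were compared per length, as CPM per kb of annotated exon sequence, which understates genes with long annotated transcripts. On that scale the 10 highest protein-coding nuclear genes were Eef1a1 (4054 ± 97.9 CPM per kb), Gpx3 (2828 ± 1471), Rplp1 (2769.6 ± 368), Krt8 (2096 ± 414), Krt18 (1902 ± 259), Eef2 (1775 ± 196), Krt19 (1591 ± 203), Rplp0 (1387 ± 62.7), Rps3a1 (1312 ± 112) and Rps15 (1248 ± 85.6). Thus 3 luminal keratins stood among 4 ribosomal protein genes and 2 elongation factors. Over all 11445 genes the median was 8.25 CPM per kb.

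All 12 luminal genes examined were present above that median. Their summed level was 9295, 7463, 7199 and 8946 CPM per kb, and the median member had 256 CPM per kb. After the 3 keratins, Cldn4, a tight-junction claudin, had 980.4 ± 241 CPM per kb and Epcam 669 ± 22.4. The lowest members were Elf3 (64.0 ± 11.8) and Ehf (17.3 ± 0.771), both transcription factors of epithelia. Only Krt7 of the 12 was past 2-fold between libraries (5.48% of all genes), with 1460.1, 871, 618 and 809 CPM. It was highest in Vehicle 1, and the count of luminal genes past 2-fold was 0 without Vehicle 1 or without Vehicle 3. The median highest-over-lowest ratio of the list was 1.35, against 1.27 over all genes of 5 CPM or more.

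Macrophage genes were all detected and nearly all shared their highest and lowest library. Of 24 core macrophage genes, all 24 had a mean CPM of 1 or more and 23 a mean of 5 or more. Their summed level was 1063, 1611, 2423 and 1646 CPM per kb, and the median member had 34.7 CPM per kb. The highest were Lyz2, lysozyme (419 ± 186 CPM per kb), C1qa (303 ± 98.3), C1qb (283 ± 88.7) and C1qc (114 ± 42.0). Lyz2 had 292, 496, 882 and 536 CPM, and Cd163, the haemoglobin scavenger receptor, had 107, 221, 325 and 166 CPM. Of the 23 members, 22 were highest in Vehicle 3 and 22 were lowest in Vehicle 1; over all 11445 genes, 39.3% were highest in Vehicle 3 and 37.4% lowest in Vehicle 1. The shares of all genes highest in Vehicle 1, 2 and 4 were 19.1%, 21.1% and 20.6%, and those lowest in Vehicle 2, 3 and 4 were 18.3%, 24.8% and 19.6%. Past 2-fold between their highest and lowest library were 10 of the 23, against 627 of 11445 genes (5.48%), and none was past 4-fold, against 71 (0.62%). Without Vehicle 1 the count past 2-fold was 1, and without Vehicle 3 it was 2. Fcgr1 was among the most even members, at 1.28 times, and Spi1, the transcription factor PU.1 of myeloid cells, was at 1.37 times. Cx3cr1, the fractalkine receptor, was the lowest member per length with 0.709 ± 0.346 CPM per kb.

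The balance of luminal over macrophage genes differed between the libraries. The median luminal member over the median core macrophage member per kb was 11.2 in Vehicle 1, 7.33 in Vehicle 2, 4.79 in Vehicle 3 and 8.38 in Vehicle 4. Epcam over Csf1r per kb was 22.2, 14.0, 11.3 and 12.9, and Krt8 over C1qa per kb was 13.5, 6.45, 3.82 and 7.69. All 3 ratios were highest in Vehicle 1 and lowest in Vehicle 3. From the mean levels the median ratio was 7.39, and without division by length it was 11.2, so the luminal genes were higher on both scales. The share of the RNA that came from either cell type was not tested.

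**Figure D2:**
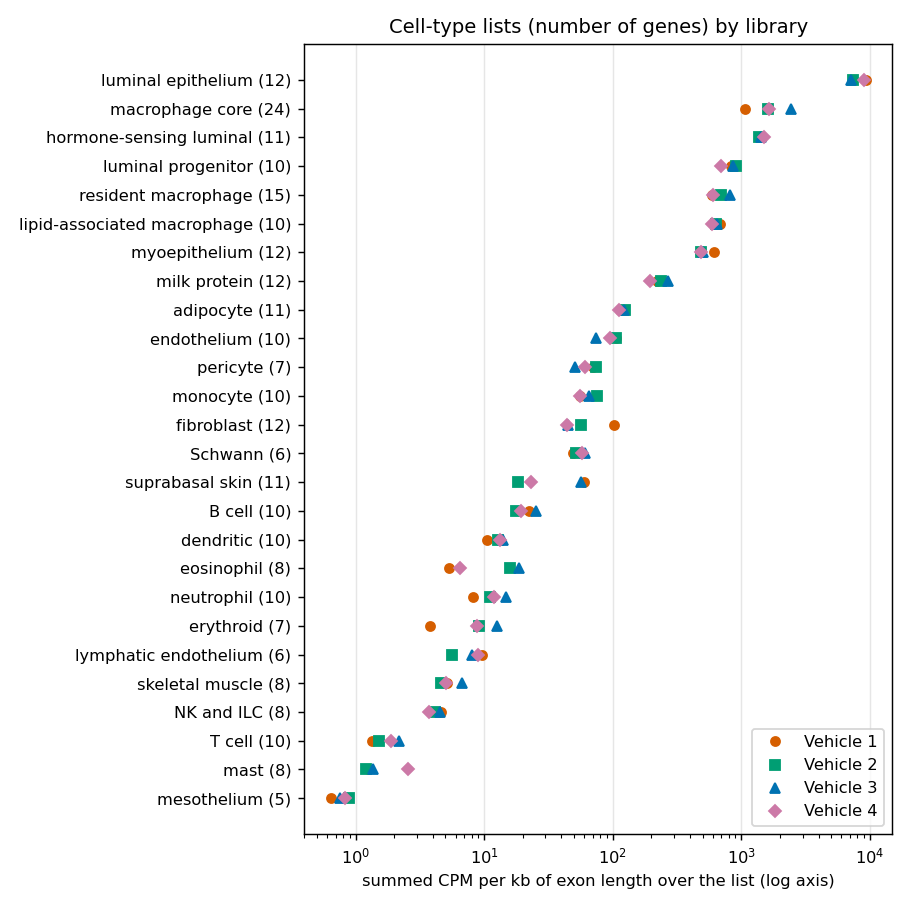
Summed level of each cell-type list in CPM per kb of exon length (horizontal axis, log scale), with the number of genes of the list in brackets and 1 symbol per Vehicle library. Luminal epithelium lies between 7199 and 9295 CPM per kb, core macrophage genes between 1063 and 2423, and mesothelial genes between 0.640 and 0.896.

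Genes of resident macrophages were present as well. The 15 genes of this list summed to 594, 695, 825 and 599 CPM per kb, and 14 had a mean CPM of 5 or more. Gas6, a bridging ligand in the uptake of dead cells, was its highest member with 199 ± 44.5 CPM per kb, and unlike most of the list it was highest in Vehicle 1, with 655, 529, 392 and 453 CPM. Lyve1, a hyaluronan receptor of vessel-associated macrophages, had 95.7, 149, 140.5 and 88.1 CPM. Clec10a, a galactose-binding lectin, had 70.2, 112, 202 and 129 CPM. Timd4, a receptor for phosphatidylserine, had 12.3, 14.9, 19.0 and 14.0 CPM. Of the 14, 11 were highest in Vehicle 3 (39.3% of all genes) and 12 lowest in Vehicle 1 (37.4%). The 5 genes past 2-fold (5.48% of all genes) became 3 without Vehicle 1 and 0 without Vehicle 3. Vsig4, a complement receptor of resident macrophages, was low, with 0.403, 0.869, 2.18 and 0.769 CPM. Retnla, a secreted product of alternatively activated macrophages that was chosen after its values were seen, had 153, 319, 604 and 288 CPM, with the same lowest and highest library. Genes of lipid-associated macrophages were uneven in level, with a median member of 7.21 CPM per kb, under the 8.25 of all genes. Their sum was 685, 641, 651 and 594 CPM per kb, highest in Vehicle 1, where the sum of the core macrophage list was lowest. Cd9, a tetraspanin, had 337 ± 32.2 CPM per kb and Lgals3, galectin 3, 178 ± 23.0. Trem2, a lipid receptor, had 1.80 ± 0.505, Spp1, osteopontin, 1.77 ± 0.586 and Gpnmb, a glycoprotein of lysosomes, 0.467 ± 0.415. Lgals3 was highest in Vehicle 1 and lowest in Vehicle 3, the reverse of most core macrophage genes, and Cd9 was highest in Vehicle 2. Which cells the RNA of Cd9, Lgals3 and Gas6 came from was not tested. Of the 7 members at 5 CPM or more, 3 were highest in Vehicle 3 and 3 lowest in Vehicle 1, against 39.3% and 37.4% of all genes. Only Trem2 of the 7 was past 2-fold, and under TMM or DESeq2 scaling it was not.

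The genes of antigen presentation had the same lowest library as the macrophage genes. Cd74, the invariant chain that escorts MHC class II, had 436, 785, 976 and 719 CPM. H2-Ab1, a class II chain, had 135, 273, 338 and 236 CPM. All 7 genes of the list were lowest in Vehicle 1 (37.4% of all genes) and 5 were highest in Vehicle 3 (39.3%). Ciita, the transcriptional activator of class II genes, was highest in Vehicle 4. Past 2-fold were 4 of the 7, against 5.48% of all genes, and the count was 0 without Vehicle 1 and 1 without Vehicle 3. The 12 genes of inflammatory cytokines, chemokines and their feedback inhibitors were all above 5 CPM, with Nfkbia, the inhibitor of NF-kappa-B, highest per length at 231 ± 35.5 CPM per kb, then Ccl2 (110.4 ± 27.2) and Ccl7 (109 ± 12.1), both monocyte chemokines. Cxcl2, a neutrophil chemokine, had 93.6, 111, 202 and 132 CPM, and Il10, an anti-inflammatory cytokine, had 12.2, 18.6, 31.3 and 18.6 CPM. Of the 12, 9 were highest in Vehicle 3 (39.3% of all genes) and 3 were past 2-fold (5.48%). The latter count was 0 without Vehicle 1 or without Vehicle 3 and 1 with DESeq2 size factors.

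Both kinds of luminal cell and the myoepithelium had their genes in the fraction. The 11 hormone-sensing genes summed to 1442 ± 60.5 CPM per kb (SD, n = 4) and the sum was even, its highest library 1.11 times its lowest. Areg, amphiregulin, a growth factor downstream of the oestrogen receptor, had 682 ± 151 CPM per kb. Prlr, the prolactin receptor, had 2521, 2657, 2401 and 2365 CPM and was at rank 21 by CPM. Esr1, the oestrogen receptor, had 182, 254, 228 and 261 CPM. Pgr, the progesterone receptor, had 688, 475, 273 and 466 CPM, whereas Cited1, a transcriptional co-regulator of hormone-sensing cells, had 189, 470.2, 609 and 484 CPM. Pgr was thus highest in Vehicle 1 and lowest in Vehicle 3, and Cited1 the reverse. Those 2 and Prom1 were past 2-fold, 3 of 10 members at 5 CPM or more, against 5.48% of all genes. Without Vehicle 1 the count was 0 and without Vehicle 3 it was 1. Tnfsf11, the progesterone-induced cytokine RANKL, had 0.851, 1.01, 1.68 and 0.128 CPM.

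All 10 luminal progenitor genes had a mean CPM of 5 or more, and their sum was 824 ± 88.5 CPM per kb (SD, n = 4). Lcn2, lipocalin 2, had 207 ± 8.18 CPM per kb and Mfge8, the lactadherin of milk fat globules, 203 ± 26.3. Kit, the stem cell factor receptor, had 235, 312, 248 and 228 CPM, and Elf5, the transcription factor of alveolar cells, 113, 115, 104 and 84.2 CPM. Only Ltf, lactoferrin, was past 2-fold (5.48% of all genes), with 312, 493, 434 and 185 CPM, lowest in Vehicle 4. Without Vehicle 4 the count was 0. Milk protein genes were split: Csn3, kappa-casein, stood at 404, 462, 562 and 410.1 CPM and Btn1a1, butyrophilin of the milk fat membrane, at 180.2, 167, 163 and 105 CPM, whereas Csn2, beta-casein, had 0.403, 0.640, 5.80 and 2.18 CPM and Wap, whey acidic protein, 0, 3, 12 and 3 counts. Glycam1 had 0 counts in all 4 libraries, which allows up to 0.0273 CPM over their total of 109877315 counts.

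The 12 myoepithelial genes summed to 614, 490.5, 505 and 491 CPM per kb. Acta2, smooth muscle actin, had 204 ± 25.3 CPM per kb, Krt14 106 ± 10.7 and Krt5 47.6 ± 7.25, whereas Trp63, the transcription factor p63 of basal cells, had 21.7, 21.5, 23.6 and 21.1 CPM and was the most even gene of the list. Past 2-fold were Krt15 and Acta1, 2 of 11 members at 5 CPM or more, against 5.48% of all genes. The count was 0 without Vehicle 2 or without Vehicle 3. Vehicle 1 had the highest sum, and the other 3 lay close together.

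Other cells of the pad were seen at lower levels. Fibroblast genes summed to 102, 56.5, 44.9 and 43.8 CPM per kb. Col1a1, the main collagen of connective tissue, had 137, 57.0, 49.9 and 45.9 CPM, and Col6a3, a collagen of the cell surroundings, 188, 131, 41.5 and 70.2 CPM. Of the 10 members at 5 CPM or more, 9 were highest in Vehicle 1, against 19.1% of all genes, and 6 were past 2-fold (5.48% of all genes), 1 of them past 4-fold (Col6a3; 0.62% of all genes). Without Vehicle 1 the counts were 1 and 0, and without Vehicle 3 they were 6 and 0. Endothelial genes summed to 95.4 ± 15.2 CPM per kb, and 9 of 10 were lowest in Vehicle 3, against 24.8% of all genes. Among them were Pecam1 with 129, 122, 92.7 and 117 CPM and Cldn5 with 27.4, 29.1, 14.1 and 20.7 CPM. Pericyte genes summed to 64.2 ± 10.3 CPM per kb, Schwann cell genes to 54.8 ± 5.30 and dendritic cell genes to 12.7 ± 1.56. Lymphatic endothelial genes summed to 8.07 ± 1.77 and skeletal muscle genes to 5.39 ± 0.936. The median member had 1.80, 3.83, 0.654, 0.932 and 0.304 CPM per kb in these lists, in that order, under the 8.25 of all genes. Notch3 alone had a mean of 368 CPM, against 457 CPM for the sum of the pericyte list. Of the adipocyte genes, the lipases Lipe (104, 99.7, 87.7 and 99.2 CPM) and Pnpla2 (177, 207, 178 and 182 CPM) and the fatty-acid carrier Fabp4 (148, 151, 192 and 129 CPM), which other cells also express, were well above the adipocyte hormone Adipoq, adiponectin (0.582, 0.686, 0.580 and 0.417 CPM), and Lep, leptin (0.403, 0.777, 0.174 and 0.705 CPM).

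Lymphocytes and granulocytes left few counts. Of 10 T cell genes, 0 had a mean CPM of 5 or more, and Cd3e, a chain of the T cell receptor complex, had 0, 1, 0 and 2 counts. Of the B cell genes, Ighm, the heavy chain of IgM, had 24.1, 31.3, 46.7 and 35.1 CPM. Of the neutrophil genes, S100a9, Ly6g, Retnlg, Ngp and Cxcr1 had 0 counts in all 4 libraries, and Mmp9, a matrix protease, and Csf3r, the receptor of a granulocyte growth factor, which other myeloid cells also use, were the only 2 of 10 at 1 CPM or more. Of the eosinophil genes, Epx, Ear1 and Ear6 had 0 counts, but Ear2, a ribonuclease that macrophages also make and that has near-identical relatives, had 2.78, 11.2, 13.3 and 4.55 CPM, a ratio of 4.78 that became 2.92 without Vehicle 1. Mast cell genes Fcer1a and Ms4a2 had 0 counts, and Hdc, which forms histamine, was the only 1 of the 8 genes of the mast cell list at 1 CPM or more, with 6.50, 7.41, 5.02 and 8.36 CPM. NK cell genes Ncr1 and Klrb1c had 0 counts, but in the same list of 8 NK and innate lymphoid genes Rora, a nuclear receptor that many cells express, had 39.6, 40.5, 36.0 and 35.6 CPM and Il1rl1, the receptor of interleukin 33, 6.85, 4.57, 4.24 and 4.07 CPM. Monocyte genes were mixed, with Ccr2, the receptor of Ccl2, at 12.5, 27.4, 29.0 and 21.2 CPM and Ly6c2 at 1.93, 0.183, 0.957 and 1.12 CPM. Haemoglobin gene Hba-a1 had 1.21, 4.98, 8.21 and 4.23 CPM; its copy Hba-a2 is near-identical, so reads of both may be divided or dropped by the counting.

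Immediate-early genes, which cells switch on within minutes of a stimulus, were among the highest of the libraries. All 18 had a mean CPM of 5 or more, the median member had 254 CPM per kb, close to that of the luminal list, and the sum was 4955, 6488, 6224 and 5903 CPM per kb. Atf3, a stress-induced transcription factor, had 1004 ± 107 CPM per kb, Fos 720.0 ± 129, Jun 621 ± 113 and Junb 604 ± 75.3; the last 3 are subunits of the AP-1 transcription factor. Fosb, another AP-1 subunit, was at rank 26 with 1695, 2719, 2303 and 2123 CPM. None of the 18 was past 2-fold (5.48% of all genes), 13 were lowest in Vehicle 1 (37.4%) and 9 were highest in Vehicle 2 (21.1%). The part of the 1 h enzyme digestion in these levels was not tested.

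Heat-shock genes, whose products refold damaged proteins, were high and lower in Vehicle 1. Hspa1b, an inducible HSP70, had 1323, 2551, 2283 and 3023 CPM. Its copy Hspa1a had 688, 1400.2, 1167 and 1789 CPM. Dnajb1, the HSP40 partner of HSP70, had 310.2, 649, 863 and 927 CPM. All 8 genes of the list were lowest in Vehicle 1, against 37.4% of all genes, 5 were highest in Vehicle 4 (20.6% of all genes) and 3 in Vehicle 3 (39.3%). Past 2-fold were 6 of 8, against 5.48% of all genes, and this count became 4 with TMM or DESeq2 scaling or without Vehicle 4, and 0 without Vehicle 1. The windows before the starts of the HSP70 pair are shown because the genes had the same lowest and highest library and are almost the same in sequence; GAANNTTC, the core of the heat-shock element, is in capitals.
Hspa1a: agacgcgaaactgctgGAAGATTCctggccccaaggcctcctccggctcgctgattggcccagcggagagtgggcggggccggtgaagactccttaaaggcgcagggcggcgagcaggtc
Hspa1b: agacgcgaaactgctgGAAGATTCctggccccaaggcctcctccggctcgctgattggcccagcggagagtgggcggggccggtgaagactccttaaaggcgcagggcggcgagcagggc
These are the 120 bases before the RefSeq start, 5′ to 3′ on the minus strand of GRCm38.p6, at chr17:34972157-34972276 for Hspa1a and chr17:34959239-34959358 for Hspa1b, and they are the same at 119 of 120 positions. Because the copies are so alike, the division of reads between the 2 genes is uncertain. GAANNTTC, which reads the same on both strands, was found in the 250 bases before the start in 4 of the 6 heat-shock genes matched in RefSeq (Hspa1a, Hspa1b, Hspb1 and Hspe1; Hspa8 and Hsp90aa1 were unmatched), and in 7.73% of all 27025 genes of that table (6.69% of its 32851 promoters). It was also found in 4 of 12 matched cell-division genes. A match is a description of letters and not evidence of binding.

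All 13 cell-division genes of the list but Pcna were higher in Vehicle 3 and 4 than in Vehicle 1 and 2. The share of all genes with this split was not computed, so the count has no background beside it. Of all 11445 genes, 39.3% were highest in Vehicle 3 and 20.6% in Vehicle 4, and 37.4% were lowest in Vehicle 1 and 18.3% in Vehicle 2. Top2a, the topoisomerase that untangles chromosomes, had 10.7, 11.6, 45.3 and 41.1 CPM. Mki67, which encodes the proliferation antigen Ki-67, had 13.4, 14.6, 41.9 and 41.4 CPM. Cdk1, the kinase that drives entry into mitosis, had 2.51, 2.70, 10.9 and 11.0 CPM. Vehicle 3 and 4 were each above Vehicle 1 and 2 in all 3 genes. They also had the higher total counts, 34471508 and 31209826, against 22321201 and 21874780 in Vehicle 1 and 2. The part of depth in this split was not tested. Of the 13 genes of the list, 8 had a mean CPM of 5 or more, and of these 7 were past 2-fold and 5 past 4-fold (Top2a, Cdk1, Aurkb, Ube2c and Rrm2), against 5.48% and 0.62% of all genes. Without Vehicle 3 the counts were 4 and 2, the ratio of Rrm2 became 2.14 without Vehicle 3 and 3.23 without Vehicle 2, that of Ube2c 3.31 without Vehicle 2, and Top2a was under 4-fold with TMM or DESeq2 scaling. The 5 members under 5 CPM, Ccnb1, Ccnb2, Birc5, Plk1 and Cenpf, had ratios of 5.10, 5.41, 4.39, 4.79 and 4.91, and each was higher in Vehicle 3 and 4 than in Vehicle 1 and 2. Pcna, the replication clamp, which is also used in DNA repair, was the exception and the most even at 1.58 times, with 50.6, 44.8, 70.8 and 48.3 CPM, Vehicle 4 lying below Vehicle 1. Mcm5, part of the replication helicase, had 15.0, 13.9, 30.1 and 20.6 CPM.

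**Figure D3:**
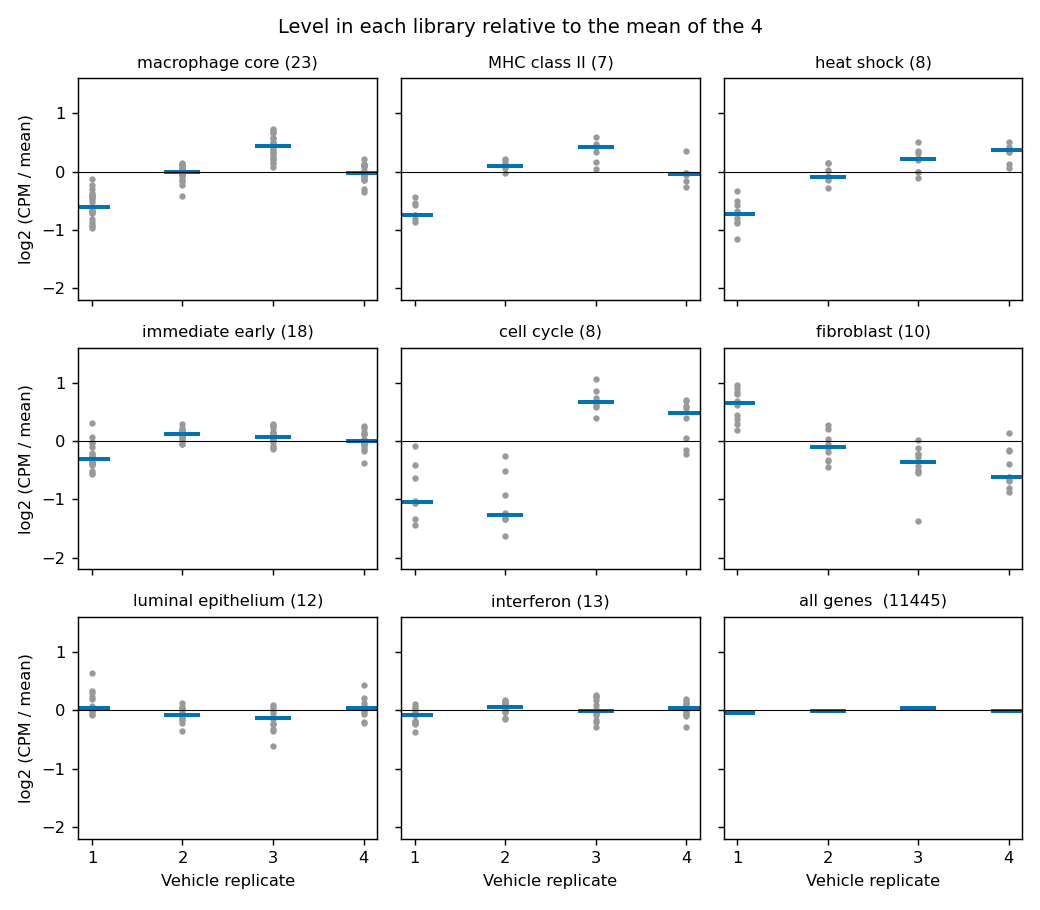
Level of each gene in each Vehicle library (horizontal axis) relative to its own mean over the 4 libraries, as log2 (vertical axis); grey points are genes with a mean CPM of 5 or more, the blue bar is the list's median, and the number of genes is in brackets. The medians of the macrophage list are -0.60, -0.01, 0.45 and -0.02, of the heat-shock list -0.73, -0.08, 0.22 and 0.37, and of the cell cycle list -1.04, -1.27, 0.66 and 0.48 in Vehicle 1 to 4, and those of all genes lie between -0.05 and 0.03; only the median is drawn for all genes.

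The windows before 3 cell-division genes are shown because the genes shared their 2 higher libraries and their promoters hold 2 motifs of mitotic genes: CCAAT, which reads ATTGG on the other strand, and TTTGAA, the core of the cell-cycle homology region, which reads TTCAAA on the other strand. Both are in capitals.
Cdk1: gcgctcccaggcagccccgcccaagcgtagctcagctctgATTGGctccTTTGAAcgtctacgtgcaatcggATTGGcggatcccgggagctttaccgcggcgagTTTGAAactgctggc
Ube2c: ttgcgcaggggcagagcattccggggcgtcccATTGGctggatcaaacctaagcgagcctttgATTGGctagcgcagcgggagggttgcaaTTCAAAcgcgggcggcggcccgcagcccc
Top2a: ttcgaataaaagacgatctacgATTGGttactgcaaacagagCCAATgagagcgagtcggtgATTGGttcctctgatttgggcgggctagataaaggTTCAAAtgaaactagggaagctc
Each is the 120 bases before the RefSeq start in GRCm38.p6, 5′ to 3′ on the gene's strand, at chr10:69352913-69353032 (minus) for Cdk1, chr2:164769809-164769928 (plus) for Ube2c and chr11:99024190-99024309 (minus) for Top2a. Cdk1 and Ube2c hold 2 copies of CCAAT in the window and Top2a holds 3. In the 250 bases before the start, CCAAT on either strand was found in 11 of the 12 matched genes of the list, all but Birc5, and in 37.49% of all genes (33.85% of promoters). It was also found in 4 of the 6 matched heat-shock genes. TTTGAA was found in 5 of the 12 (Mki67, Top2a, Ccnb2, Cdk1 and Ube2c) and in 18.26% of all genes (15.99% of promoters); it can share its GAA with GAANNTTC, and Aurkb was unmatched.

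Interferon-induced genes were low, and about as even as all genes. All 13 had a mean CPM of 5 or more, but the median member had 6.70 CPM per kb, under the 8.25 of all genes, and the sum was 174 ± 10.0 CPM per kb (SD, n = 4). Bst2, a protein that tethers virus particles, was the highest with 80.9 ± 12.9 CPM per kb. Isg15, a ubiquitin-like protein, had 16.8, 19.8, 16.8 and 17.5 CPM, and Irf7, a transcription factor of the interferon response, 51.7, 61.5, 58.5 and 66.6 CPM. None of the 13 was past 2-fold, against 5.48% of all genes, and their median ratio was 1.29, against 1.27 over all genes.

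Large ratios between libraries were few. Over the 11445 genes the median ratio was 1.27. Of the 71 genes past 4-fold, 41 (57.7%) were highest in Vehicle 1, against 19.1% of all genes. Highest in Vehicle 3 were 17 (23.9%), against 39.3% of all genes, and lowest in Vehicle 3 were 38 (53.5%), against 24.8%. The 71 became 36 without Vehicle 1 and 42 without Vehicle 3, and the 627 past 2-fold became 279 and 298. When the second highest library was set over the second lowest, 44 genes were past 2-fold and 5 past 4-fold. This ratio of the middle values cannot exceed that of highest to lowest, so the numbers could not rise. They do not show whether single libraries made the ratios. Among the 20 largest, 1 predicted gene model was passed over. These genes were chosen by their ratio, so the ratios describe them and are not tested.

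Krt25, Krt71, Krt1 and Krt10, keratins of the hair sheath and of the outer skin, stood high in Vehicle 3 alone. Krt25, a keratin of the inner root sheath of the hair, had 0, 12, 1072 and 1 counts and 0, 0.549, 31.1 and 0.0320 CPM, a ratio of 324 with counts under 3 raised to 3 in each library. Against Vehicle 1, its 0 counts raised to 3, Vehicle 3 was at least 231-fold higher. Krt71, its partner of the same sheath, had 0.448, 1.33, 44.0 and 0.320 CPM. Krt1 and Krt10, the keratin pair of the upper epidermis, had 1.03, 2.15, 39.3 and 1.54 CPM and 2.33, 2.38, 49.4 and 2.02 CPM. Without Vehicle 3 the ratios were 5.71 for Krt25, 4.14 for Krt71, 2.09 for Krt1 and 1.18 for Krt10. Other hair sheath and epidermal genes, chosen after their values were seen, had the same single library: Krt27 had 0, 0, 354 and 0 counts and Krt73 0, 1, 440 and 0 counts, Krt35, a keratin of the hair shaft, 0, 10, 511 and 0 counts and Dsg4, a desmoglein of the hair, 0, 0, 23 and 0 counts. Krtdap and Dsg1a, members of the epidermal list, had 0, 0.183, 5.25 and 0 CPM and 0.0448, 0.0457, 7.66 and 0.0320 CPM. Not every epidermal gene followed, and the sum of the 11 genes of that list was 59.9, 18.3, 56.7 and 23.1 CPM per kb, highest in Vehicle 1. Krt6a, an injury-induced keratin, had 109.7, 24.5, 15.6 and 38.0 CPM and was highest in Vehicle 1, with a ratio of 7.03 that became 2.44 without Vehicle 1 and 4.49 without Vehicle 3, and Krt79, another epidermal keratin, had 15.1, 3.89, 5.60 and 4.39 CPM and was highest in Vehicle 1 too. Sbsn, suprabasin, had 10.8, 15.1, 16.7 and 10.5 CPM. Of the 11 epidermal genes, 5 had a mean CPM of 5 or more. Among these, 4 were past 2-fold and 3 past 4-fold (Krt1, Krt10 and Krt6a), against 5.48% and 0.62% of all genes. The latter count was 2 without Vehicle 1 and 2 without Vehicle 3.

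The windows before the 2 hair sheath genes of the largest ratios are shown with TATAAA, the TATA box, in capitals.
Krt25: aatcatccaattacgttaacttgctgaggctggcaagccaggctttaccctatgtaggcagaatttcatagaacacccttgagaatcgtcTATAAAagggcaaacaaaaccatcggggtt
Krt71: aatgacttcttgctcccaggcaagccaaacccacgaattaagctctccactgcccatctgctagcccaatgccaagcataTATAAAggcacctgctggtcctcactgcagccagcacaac
They are the 120 bases before the RefSeq start on the minus strand of GRCm38.p6, at chr11:99322952-99323071 for Krt25 and chr15:101743098-101743217 for Krt71. The TATAAA begins 30 bases before the start of Krt25 and 40 bases before that of Krt71, and it was found on either strand in 14.33% of all genes (12.37% of promoters) over 250 bases. Only this motif is marked in these windows.

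A second set of genes was high in Vehicle 1 and lowest in Vehicle 3. Aoc1, a diamine oxidase that breaks down histamine, had 211, 32.8, 2.29 and 22.4 CPM, a ratio of 92.3. Padi4 and Padi2, enzymes that turn arginine in proteins into citrulline, had 362, 73.3, 11.9 and 25.2 CPM and 567, 124, 46.9 and 114 CPM. Greb1, a target gene of the oestrogen receptor, had 47.7, 12.5, 2.99 and 4.36 CPM. In each of these 4 genes Vehicle 1 was highest, Vehicle 3 lowest and Vehicle 2 second. Ptpn5, a tyrosine phosphatase, had 186, 77.4, 8.59 and 48.8 CPM, Tmem86a, a membrane enzyme of lipid metabolism, 311, 58.0, 19.2 and 53.1 CPM, and Krt4, a keratin of inner mucosal surfaces, 91.3, 4.07, 1.19 and 2.37 CPM. Asic2, Fam83e, Chst8, Tmprss11a, Trabd2b and Htra3 were also highest in Vehicle 1 and lowest in Vehicle 3, with ratios from 9.68 (Htra3) to 24.8 (Asic2). Without Vehicle 1 the ratios were 14.3 for Aoc1, 6.15 for Padi4, 2.65 for Padi2, 4.19 for Greb1 and 3.42 for Krt4, and without Vehicle 3 they were 9.44 for Aoc1, 14.3 for Padi4, 4.98 for Padi2, 10.9 for Greb1 and 38.5 for Krt4. For the other 8 genes of the set they were 2.35 to 9.02 without Vehicle 1 and 3.81 to 9.75 without Vehicle 3. Of the 10 genes at 5 CPM or more in a list of oestrogen and progesterone targets, 7 were highest in Vehicle 1 and 6 lowest in Vehicle 3, against 19.1% and 24.8% of all genes. Greb1 alone was past 4-fold, and with Pgr 2 were past 2-fold, against 5.48% of all genes. That count became 3 with TMM and 4 with DESeq2 scaling and 1 without Vehicle 1 or without Vehicle 3. Areg (1031, 613, 751 and 919.5 CPM) and Igfbp5 (3599, 3185, 2443 and 2534 CPM), both also highest in Vehicle 1, differed by less than 2-fold. The stage of the oestrous cycle is not given in the labels, and its part was not tested.

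Of the 20 genes, 3 had other patterns. Upk3a, uroplakin 3a of the urothelium, had 24.2, 55.3, 44.8 and 309 CPM and was high in Vehicle 4 alone; without Vehicle 4 its ratio was 2.29, and without Vehicle 1 it was 6.90. Krt77, a keratin, had 26.2, 2.56, 14.9 and 1.28 CPM, a ratio of 20.4 that was 11.6 without Vehicle 1 and 10.2 without Vehicle 4. Aldh3a1, an aldehyde dehydrogenase, had 11.0, 10.0, 23.5 and 1.54 CPM, and its ratio of 15.3 became 2.35 without Vehicle 4 and 7.17 without Vehicle 3.

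**Figure D4:**
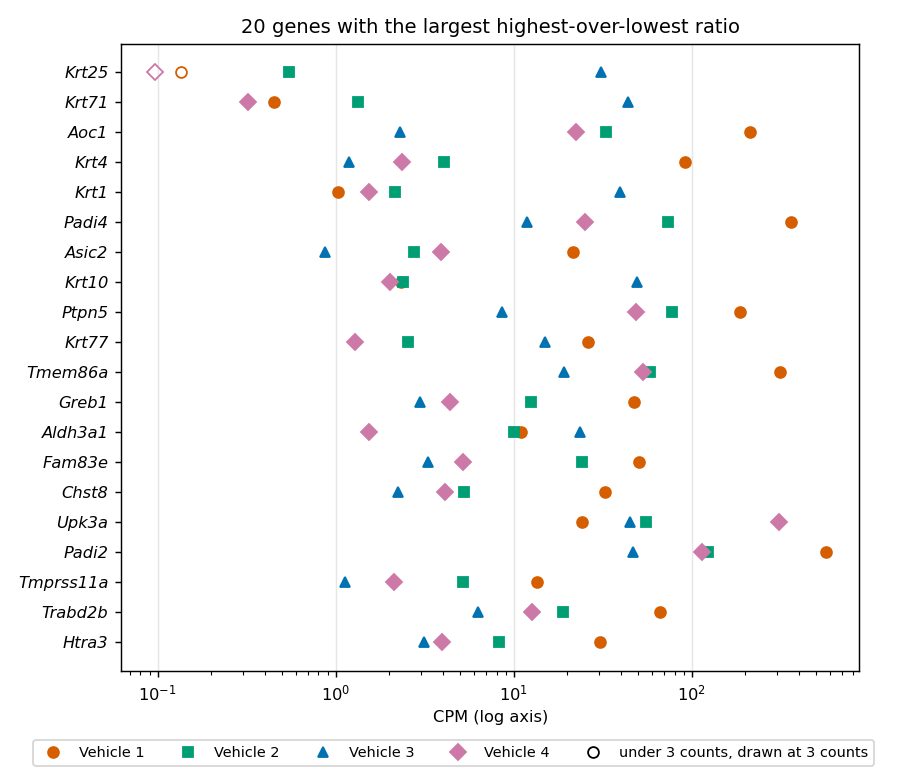
CPM (horizontal axis, log scale) of the 20 genes with the largest ratio of highest to lowest Vehicle library among genes with a mean CPM of 5 or more, 1 symbol per library. Open symbols stand for fewer than 3 counts and are drawn at 3 counts; Vehicle 3 is highest for Krt25, Krt71, Krt1 and Krt10, Vehicle 4 for Upk3a, and Vehicle 1 for most of the others.

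At the other end were genes that hardly differed between the pools. Among the genes with a mean CPM of 100 or more, the 6 smallest ratios belonged to Trim44 (152, 152, 152 and 153 CPM), Dnpep (118, 116, 116 and 117 CPM), Glmp (112, 111, 113 and 112 CPM), Ccni (235, 241, 235 and 238 CPM), Calm3 (218, 216, 217 and 212 CPM) and Copb1 (194, 189, 194 and 191 CPM). Their highest library was between 1.01 and 1.03 times their lowest. Genes often used as references were less even: Actb, cytoplasmic actin, had 2368, 2507, 2530.4 and 3024 CPM, Hprt 75.8, 82.0, 89.9 and 73.5 CPM and B2m, the light chain of MHC class I, 459.6, 522, 784 and 541 CPM. Gapdh had 17.6, 9.78, 9.78 and 11.9 CPM, a level that reads shared with its many pseudogenes can lower. Over all 11445 genes, the common biological coefficient of variation, the spread between libraries beyond counting error as estimated by edgeR, was 0.162. Between any 2 libraries the counts differed by a chi-square of 19.6 to 70.1 per degree of freedom, so no library was a copy of another.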

How the data were processed

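Per the labels, RNA of the 4 libraries was amplified with a SMARTer ultra-low-input kit and poly-A selected; this method keeps no strand, so overlapping and antisense genes share reads. The authors deposited whole-number counts of reads per Ensembl gene, not normalised. The submitters' processing notes name HISAT2 2.0.5 and featureCounts 1.5.0-p3, with mm10 as the build, and DESeq2; how reads with several matches were counted was not given in the sources used here. A hand note reading Ccr2 stands in the row of Armh3, and Ccr2 was taken from its own identifier.

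CPM were computed from the counts over each library's total, and CPM per kb with union exon lengths of GENCODE M21, which named 52125 of 56748 identifiers (91.9%). Rows without a symbol held 0.97% to 1.25% of a library's counts. For ratios, counts under 3 were raised to 3, a floor of 0.0870 to 0.137 CPM at these depths; floors cover counting error only, since reads were amplified without molecular identifiers. Spread was estimated with edgeR 4.0.16 in R 4.3.3 (TMM factors 0.963 to 1.04). With 1 group there is no comparison and no p-value; lone libraries were marked with Dixon's criterion. Scripts were tested on simulated data. Promoters come from RefSeq (GRCm38.p6), matched by symbol.

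The 35 lists (363 entries), the rules and the alternatives were chosen with earlier results of these data known. Genes named are 6 markers (Adgre1, Csf1r, C1qa, Krt8, Epcam and Col3a1), the 20 highest by CPM, the 10 highest per kb, the 20 largest ratios, the 6 smallest at 100 CPM or more, up to 4 members per list by level, and list members at 0 counts or past 4-fold. Other genes were chosen after their values were seen. Alternatives were TMM, DESeq2 1.42.0 and upper-quartile scaling, totals without mitochondrially encoded genes, other minimum levels, no division by length, inner in place of outer libraries in the ratio, and leaving out each library.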

Additional observations from a re-analysis of the deposited data

Results flagged for a closer look

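In 63 genes and 35 list sums, the gap of the highest or lowest library to its nearest neighbour, over the whole range of the 4 values, was set against Dixon's 95% critical value for 4 samples, which chance alone passes in about 1 in 20 groups. Of the 13 genes past it, 11 had been chosen by the ratio of these same 4 values. Their gaps are given as a description only and support nothing: they were 0.852 for Padi2, 0.867 for Tmem86a, 0.854 for Aoc1, 0.968 for Krt4, 0.901 for Chst8 and 0.855 for Asic2, with Vehicle 1 high, 0.992 for Krt10, 0.977 for Krt71, 0.971 for Krt1 and 0.982 for Krt25, with Vehicle 3 high, and 0.891 for Upk3a, with Vehicle 4 high. The other 2 genes were named for their level or as a marker, and Vehicle 1 was high in both: Glul, with 6364, 2952, 2914 and 3121 CPM (0.940), and Col3a1, with 219, 96.6, 90.6 and 79.6 CPM (0.878). With 63 genes examined, these 2 are a description only as well. Of the 35 list sums, 2 were past the critical value, close to the 1 in 20 that chance alone passes, so they too are a description only. Vehicle 1 was high for the myoepithelial list (0.880), with 614, 490.5, 505 and 491 CPM per kb. Vehicle 4 was high for the mast cell list (0.870), with 1.26, 1.20, 1.37 and 2.54 CPM per kb and only Hdc of its 8 genes above 1 CPM.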

How the results depend on the processing

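Scaling changed little: with TMM, DESeq2 size factors or totals without mitochondrially encoded genes, 618 to 639 genes were past 2-fold and 70 to 71 past 4-fold, against 627 and 71, and 84 of 84 recomputed ratios of the 28 genes examined stayed within 1.5 times. With the minimum level at 1 CPM, 1758 genes were past 2-fold and 258 past 4-fold; with 20 CPM the numbers were 280 and 32, and with the second highest over the second lowest library 44 and 5. Leaving out 1 library gave 279 to 582 genes past 2-fold (lowest without Vehicle 1) and 36 to 71 past 4-fold, and 71 of 112 ratios within 1.5 times. Of the 20 genes of highest CPM, 18 to 19 were kept when a library was left out and 11 when genes were ranked per kb. The luminal over macrophage ratio of 7.39 was 11.19 without division by length and 6.616 to 8.702 with a library left out. The biological coefficient of variation of 0.162 was 0.2083 without the minimum level and 0.1419 to 0.1817 with a library left out. The causes of these shifts were not tested, beyond the number of genes that each minimum admits and the number of libraries. At these depths 1 count was worth up to 0.0457 CPM, which bounds what can be seen of genes near 0. No paired analysis was possible because only 1 group is described.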

Other observations

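The values of 5 genes known as glucocorticoid targets are given here; they were picked after their values were seen, so they show nothing about such targets as a group, and 37.4% of all genes were lowest in Vehicle 1. Zbtb16, a transcription factor, had 24.1, 60.3, 117 and 82.5 CPM. Fkbp5, a co-chaperone of steroid receptors, had 28.0, 54.5, 80.8 and 51.6 CPM, and Tsc22d3, also called GILZ, 34.6, 64.7, 76.6 and 47.5 CPM. These 3 were lowest in Vehicle 1 and highest in Vehicle 3. Per1, a clock gene that these hormones also induce, differed less, with 211, 323, 288 and 246 CPM, and Klf9 had 87.7, 103, 89.9 and 104 CPM. The time of day of collection is not given in the labels.

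Some secreted and transport genes, likewise chosen after their values were seen, differed in which library was highest. Fgb and Fgg, chains of fibrinogen, had 402, 590.2, 736 and 1535 CPM and 366, 693, 737 and 1039 CPM, lowest in Vehicle 1 and highest in Vehicle 4. Slc5a5, the iodide transporter that mammary cells use to put iodide into milk, had 1118, 591, 342 and 621 CPM, and Aqp5, a water channel, 1325, 711, 395 and 532 CPM. Both were highest in Vehicle 1 and lowest in Vehicle 3. Syn2, a synapsin best known from nerve endings, had 767, 662, 149 and 274 CPM.

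Of the 291 genes past 2-fold that were highest in Vehicle 3, 200 were lowest in Vehicle 1. Of all 4498 genes of 5 CPM or more that were highest in Vehicle 3 at any ratio, 2264 were lowest in Vehicle 1. The median exon length of the 291 was 2904 bases, against 3816.5 for the 4498 and 4605 over all genes of 5 CPM or more. For the genes past 2-fold that were highest in Vehicle 1, 2 and 4 it was 4177, 4392.5 and 3618.5 bases. Among short transcripts, Rps29 and Rps27a were chosen after their values were seen and do not stand for short transcripts as a group. Rps29 had 180.5, 119, 358 and 116 CPM and Rps27a 297, 167, 551 and 411 CPM, both highest in Vehicle 3, whereas Rplp0 had 2306, 2153, 2360.5 and 2384 CPM. The ratio was 3.30 for Rps27a, 2.12 for Rps28 and 1.16 for Rps12, all highest in Vehicle 3, and 1.12 for Rpl19, highest in Vehicle 1. Vehicle 3 also had the highest share of mitochondrially encoded counts (2.13%); the part of RNA quality in these values was not tested.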
